A study of Mus musculus with 4 samples.

Results

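The 39 genes described here encode the glucose carriers, the enzymes of glycolysis, the enzymes and carriers of lactate, pyruvate dehydrogenase with its kinases, and the enzymes of the pentose phosphate pathway. They were chosen by gene symbol and not by a rule on expression, but with earlier results of these data known. All 39 symbols were found among the 49585 genes of the deposited FPKM matrix. RNA had been sequenced from murine 4T1 triple–negative breast cancer cells, as 1 library for each of 4 conditions. HM_Ctrl and LM_Ctrl were clones 4T1–HM and 4T1–LM, of high and low metastatic capacity, kept for 48 h with DMSO (0 μmol/L of DFX), and HM_DFX and LM_DFX were the same clones after 48 h in 50 μmol/L of the iron chelator deferasirox (DFX). Each clone had been grown from a single cell, so a difference between HM and LM is a difference between 2 clones and cannot be told apart from other differences between single cells of the line.

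Since each condition is 1 library, no spread between cultures is known and no test was made. The methods of the study state in general terms that experiments were repeated biologically, and whether a library holds 1 culture or several is not stated. Levels are FPKM, the fragments (read pairs) of a gene scaled for its length and for the total of the library, so they can be compared between genes. Where 4 levels stand in a row without names, their order is HM_Ctrl, HM_DFX, LM_Ctrl, LM_DFX. A fold change is the log2 ratio of FPKM + 1, which makes changes of weakly expressed genes look smaller than they are, and a gene is called higher or lower at 2-fold or more. The call rule was applied to the 12669 genes that reached an FPKM of 1 in any library, the kept or expressed genes, which include 35 of the 39 members. Whole fragments were recovered from the FPKM, and the library totals were between 14363064 and 21883856 fragments. Intervals in brackets are exact 95% intervals of a ratio of FPKM without the added 1, and they cover counting error only.

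The epithelial markers Epcam, Krt8, Krt18 and Cdh1 were present in all 4 libraries, and the summed FPKM of the 5 epithelial markers was 1489 without and 445 with DFX in HM, and 2076 without and 932 with DFX in LM. Krt14 stood at 54.3 in LM_Ctrl and at 2.48 or less in both HM libraries. Of the receptors that define triple–negative cancer by their absence, Pgr was at 0 and Esr1 at 0.529 or less, whereas Erbb2 was between 3.80 and 12.5. Of the blood cell markers given here, Ptprc and Cd3e were at 0 or at most at 0.0139, but Cd68 had an FPKM of 12.9 without and 37.4 with DFX in HM, and 12.3 without and 83.1 with DFX in LM. The endothelial markers did not exceed 0.123, and of the fibroblast markers only Pdgfra, at 2.77 to 5.50, passed an FPKM of 1. The part of the lower epithelial markers and the higher Cd68 under DFX in the results on the members was not tested, and fewer cells of a type and less RNA per cell cannot be told apart in bulk RNA.

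Glycolysis splits glucose into pyruvate and yields ATP without oxygen, lactate dehydrogenase turns pyruvate into lactate to renew NAD+, and many tumours run this route even with oxygen at hand. The pentose phosphate pathway branches off at glucose 6–phosphate and supplies NADPH and ribose for nucleotides, and the pyruvate dehydrogenase kinases hold pyruvate out of the mitochondrial citrate cycle. Many of these genes are textbook targets of hypoxia–inducible factor 1 (HIF–1), whose alpha subunit is marked for decay by prolyl hydroxylases that need iron and oxygen, and several are also targets of MYC.

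HIF binds DNA at hypoxia response elements, whose core is often ACGTG. The 250 bases before and 50 bases after each start site were searched for these letters on both strands. RefSeq promoter sequences (build GRCm38.p6) were used. The table matched 38 of the 39 members (not Slc2a3), with 58 windows, some of which overlap. The 6 windows shown are the 250 bases before the start site of 4 members that were 2-fold higher in LM_DFX than in LM_Ctrl and hold the motif, of Ldha, and of Eno2, the member with the largest rise with DFX. They lie at chr4:119108495-119108744 on the plus strand (Slc2a1), chr6:82774455-82774704 on the minus strand (Hk2), chr2:11502091-11502340 on the minus strand (Pfkfb3, the more downstream of its start sites), chrX:106186850-106187099 on the plus strand (Pgk1), chr7:46845554-46845803 on the plus strand (Ldha) and chr6:124769674-124769923 on the minus strand (Eno2). Capitals mark ACGTG or its reverse complement CACGT, which overlap where the letters read CACGTG.
Slc2a1: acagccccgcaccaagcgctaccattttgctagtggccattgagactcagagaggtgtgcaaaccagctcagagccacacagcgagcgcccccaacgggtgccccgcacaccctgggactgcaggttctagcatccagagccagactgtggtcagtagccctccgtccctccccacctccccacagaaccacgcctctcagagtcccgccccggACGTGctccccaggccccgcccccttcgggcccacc
Hk2: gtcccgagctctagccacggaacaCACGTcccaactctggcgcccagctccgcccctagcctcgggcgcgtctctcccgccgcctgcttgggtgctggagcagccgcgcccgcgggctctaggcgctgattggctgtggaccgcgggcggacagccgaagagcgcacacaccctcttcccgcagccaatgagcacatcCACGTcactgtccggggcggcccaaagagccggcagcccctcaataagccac
Pfkfb3: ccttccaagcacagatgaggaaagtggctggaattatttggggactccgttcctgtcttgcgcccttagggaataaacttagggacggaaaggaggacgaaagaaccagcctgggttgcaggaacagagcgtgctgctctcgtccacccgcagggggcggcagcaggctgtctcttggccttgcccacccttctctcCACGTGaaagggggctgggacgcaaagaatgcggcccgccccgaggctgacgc
Pgk1: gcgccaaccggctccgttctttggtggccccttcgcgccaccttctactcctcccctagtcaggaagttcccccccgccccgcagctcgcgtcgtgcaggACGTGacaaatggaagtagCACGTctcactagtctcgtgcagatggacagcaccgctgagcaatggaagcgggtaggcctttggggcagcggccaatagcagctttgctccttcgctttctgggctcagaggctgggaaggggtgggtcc
Ldha: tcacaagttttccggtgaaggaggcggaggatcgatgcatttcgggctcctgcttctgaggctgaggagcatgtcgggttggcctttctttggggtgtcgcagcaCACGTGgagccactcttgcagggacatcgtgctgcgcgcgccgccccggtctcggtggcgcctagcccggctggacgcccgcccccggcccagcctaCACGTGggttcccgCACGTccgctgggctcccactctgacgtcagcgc
Eno2: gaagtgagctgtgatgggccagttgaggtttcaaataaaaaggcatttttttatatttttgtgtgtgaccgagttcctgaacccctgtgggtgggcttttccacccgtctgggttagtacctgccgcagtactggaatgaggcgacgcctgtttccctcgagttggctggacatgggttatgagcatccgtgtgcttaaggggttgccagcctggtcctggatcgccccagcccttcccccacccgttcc
The motif was present in 23 of the 58 windows of members (39.7%), against 25.8% of the 11076 windows of all kept genes and 19.6% of all 32851 windows. Of the 27 windows of members listed as HIF–1 targets, 51.9% held it, and of the 31 windows of other members, 29.0%. Among the 10 members that were 2-fold higher in LM_DFX, 7 had it in at least 1 window (Slc2a1, Hk2, Pfkfb3, Aldoa, Aldoc, Gapdh and Pgk1), and Eno2, Pdk1 and Pfkp did not have it in the windows searched. Counted by gene in the same way, 19 of the 38 members and 2591 of 8634 kept genes had it. Of the members listed as HIF–1 targets, 12 of 17 had it, the 7 named among them. Of the members 2-fold lower in HM_DFX than in HM_Ctrl, Pfkm, Gapdh, Pdk2 and Pdk3 also had it, and Pgls and Taldo1 did not. Whether the motif goes with the response was not tested. GCGTG, which differs from ACGTG in the first letter, was in 56.9% of the windows of members and 52.0% of those of kept genes. Pdk1 and Pfkp held GCGTG and Eno2 did not. CACGTG, which contains ACGTG on both strands, was in 10.3% and 10.1%, and TGACNNNGC, the core of the antioxidant response element, in 8.62% and 14.5%. These are matches of letters in short windows and not binding sites.

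Many glycolysis genes were higher with DFX in the LM libraries, with Eno2, Slc2a1 and Pfkfb3 in front. In LM_DFX against LM_Ctrl, 10 of the 35 expressed members were at least 2-fold higher, where 7.09% of all kept genes were, and 0 were 2-fold lower, where 8.72% were. The 10 were Slc2a1, Hk2, Pfkp, Pfkfb3, Aldoa, Aldoc, Gapdh, Pgk1, Eno2 and Pdk1, which are spread from glucose uptake through hexokinase, phosphofructokinase, aldolase and phosphoglycerate kinase to enolase and the control of pyruvate. The median log2 fold change of the members was 0.44, against −0.04 over all kept genes. Of the members, 22 were above 0 and 13 below, or 24 and 11 with median–ratio scaling, under which Pfkm and Rpe changed sign. Of all 12669 kept genes, 5929 were above 0 and 6662 below. In HM_DFX against HM_Ctrl, 2 members were 2-fold higher (Pfkfb3 and Eno2), with 6.93% of all kept genes, and 6 were 2-fold lower (Pfkm, Gapdh, Pdk2, Pdk3, Pgls and Taldo1), with 12.4% of all kept genes. Both HM counts lie near what these background shares give for 35 genes, and the lower count was 5 when copies of Gapdh, described with that gene, were added to it. Here the median was −0.13 for the members and −0.10 for all kept genes, with 15 members above 0 and 20 below. Of all 12669 kept genes, 5531 were above 0 and 7083 below. Median–ratio scaling gave 17 and 18 members, moved the median of all kept genes from −0.10 to 0.00 and changed the sign of Eno1 and Tpi1. Gapdh, below 0 here, was above 0 with its copies added.

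The members with textbook standing as HIF–1 targets (18, of which 16 were expressed) were also read apart from the rest. In LM their median log2 fold change was 1.00, with 15 above 0, 1 below and 8 at least 2-fold higher. In HM it was 0.26, with 9 above 0, 7 below and 1 past 2-fold in each direction (Pfkfb3 higher and Gapdh lower), or 10 above, 6 below and 0 lower with the Gapdh copies added. The 19 other expressed members had a median of −0.17 in LM and −0.30 in HM. In summed level the 39 members took 1.34% of the total FPKM of HM_Ctrl, 1.52% of HM_DFX, 1.09% of LM_Ctrl and 1.84% of LM_DFX. The LM libraries thus gave both the lowest and the highest share, and the share was 1.13-fold higher with DFX in HM and 1.69-fold higher in LM. These shares use the rows of the members only and leave out the copies of Gapdh and Eno1, described with those genes.

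**Figure D1:**
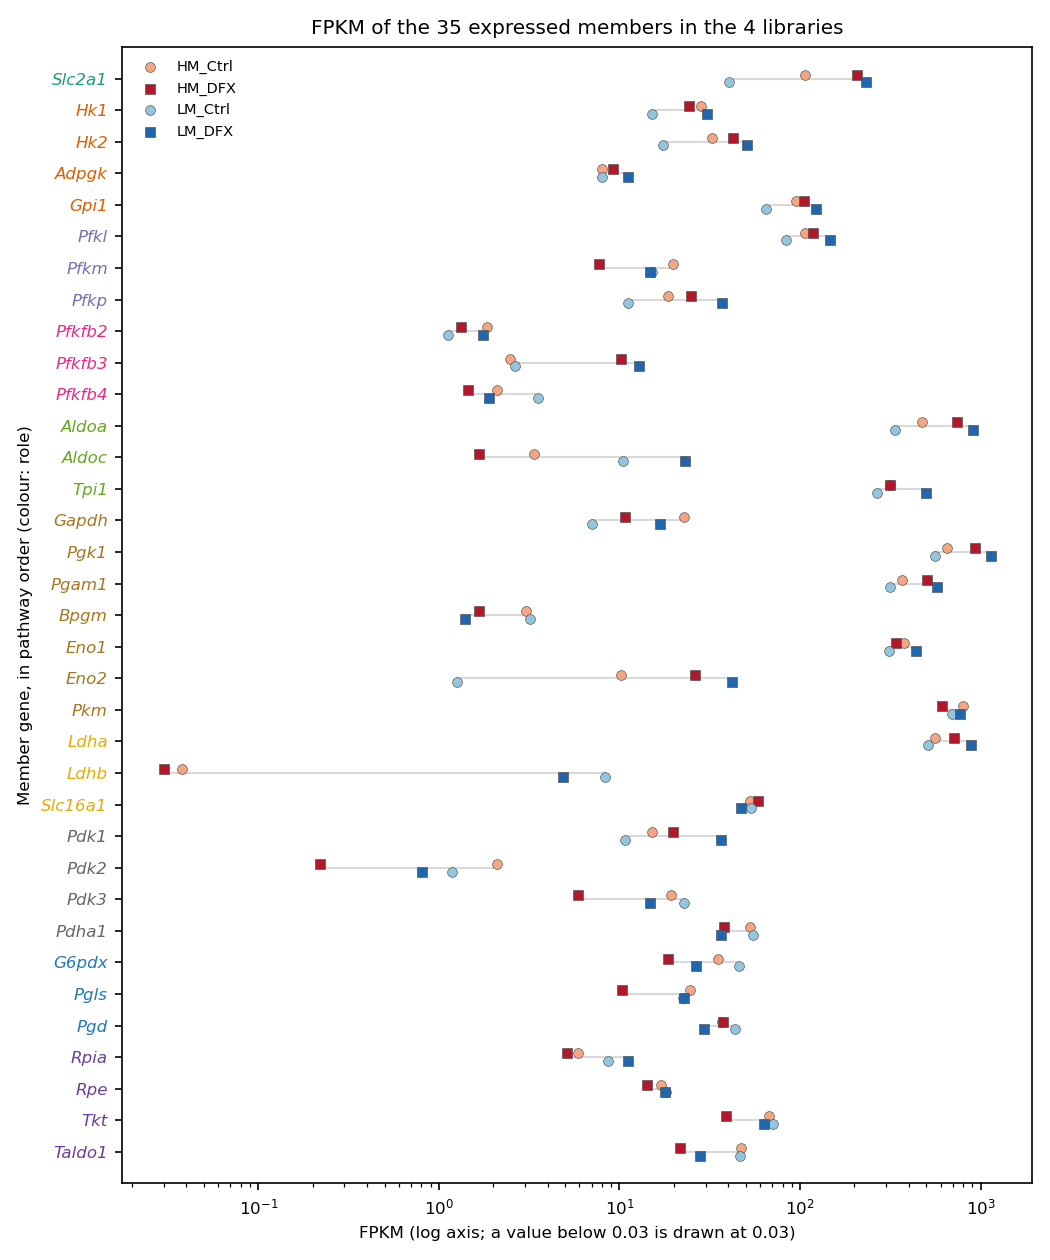
FPKM (log axis) of the 35 expressed members, in pathway order and coloured by role, with circles for the libraries without drug, squares for DFX, red for HM and blue for LM. From Slc2a1 to Pgk1 the dark blue square of LM_DFX is the rightmost point for most genes, whereas HM_DFX is the leftmost point for Pfkm, Pdk2, Pdk3 and most pentose phosphate genes.

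Slc2a1, the GLUT1 glucose carrier of most tumour cells (ENSMUSG00000028645, chromosome 4 from 119108711 to 119137983 of mm10), stood at an FPKM of 107 in HM_Ctrl and 207 in HM_DFX, and of 40.3 in LM_Ctrl and 231 in LM_DFX. LM_Ctrl stood apart as the lowest library, and the clones differed less under DFX than without drug. The ratio with DFX was 5.73 [5.48, 5.99] in LM (log2 fold change 2.49) and 1.94 [1.88, 2.00] in HM (0.95), just short of the call, which it passed with median–ratio scaling at 1.09. Slc2a3, the GLUT3 carrier, was listed at 0 in all 4 libraries, where 3 fragments would have given an FPKM of 0.0288 or less.

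The hexokinases trap glucose in the cell as glucose 6–phosphate. Hk2, the inducible form (ENSMUSG00000000628, chromosome 6 from 82725025 to 82774454), had an FPKM of 32.4 without and 42.7 with DFX in HM, and 17.5 without and 51.0 with DFX in LM. It was lowest in LM_Ctrl and highest in LM_DFX, a ratio of 2.91 [2.76, 3.08] in LM against 1.32 [1.26, 1.39] in HM. Hk1, the form of most tissues (ENSMUSG00000037012, chromosome 10 from 62268855 to 62379908), stood at 28.1, 24.2, 15.1 and 30.6 in the same order of libraries. Its log2 fold change was −0.21 in HM and 0.97 in LM, which is just under the call and reached 1.02 without a pseudocount and with median–ratio scaling. Hk2 accounted for 53.5% of the summed FPKM of the pair in HM_Ctrl and 53.7% in LM_Ctrl, and for 63.9% and 62.5% with DFX. The share of Hk2 was thus about equal in the clones in either condition, although the levels were not. Adpgk, a hexokinase that uses ADP, was between 7.95 and 11.1 in all libraries. Gpi1, which turns glucose 6–phosphate into fructose 6–phosphate, was between 65.1 and 122, with a log2 fold change of 0.16 in HM and 0.89 in LM.

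Phosphofructokinase commits sugar to glycolysis and is built from 3 kinds of subunit. Pfkl, the liver–type subunit, was the most abundant at 106 without and 119 with DFX in HM, and 83.5 without and 146 with DFX in LM. Pfkp, the platelet–type subunit (ENSMUSG00000021196, chromosome 13 from 6579768 to 6648777), had an FPKM of 18.6, 24.8, 11.2 and 37.1 and rose in LM, with a ratio of 3.31 [3.14, 3.49]. Pfkm, the muscle–type subunit (ENSMUSG00000033065, chromosome 15 from 98092589 to 98132447), had 19.8, 7.75, 15.2 and 14.8. Only its HM_DFX library was low, at a ratio of 0.391 [0.344, 0.443] in HM and 0.972 [0.881, 1.07] in LM. Within a library, Pfkm made up 13.7% of phosphofructokinase FPKM without and 5.12% with DFX in HM, and 13.8% without and 7.49% with DFX in LM, so its share was smaller with DFX in both clones.

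The PFKFB enzymes make and break fructose 2,6–bisphosphate, a potent activator of phosphofructokinase. Pfkfb3, the form with the highest kinase activity (ENSMUSG00000026773, chromosome 2 from 11471433 to 11554077), had an FPKM of 2.49 without and 10.1 with DFX in HM, and 2.64 without and 12.9 with DFX in LM. Both DFX libraries stood above both libraries without drug, and the ratios were 4.07 [3.59, 4.63] in HM and 4.89 [4.34, 5.52] in LM, log2 fold changes of 1.67 and 1.93. Pfkfb3 and Eno2 were the 2 members at least 2-fold higher in both clones. Pfkfb4 had 2.11, 1.46, 3.52 and 1.90, and Pfkfb2 was between 1.13 and 1.85. Pfkfb1, the liver form, stayed under an FPKM of 1, at 0.788, 0.156, 0.680 and 0.330. As a result Pfkfb3 was 34.4% of PFKFB FPKM in HM_Ctrl and 33.1% in LM_Ctrl, and 77.5% and 76.4% with DFX, a change of nearly equal size in the 2 clones.

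**Figure D2:**
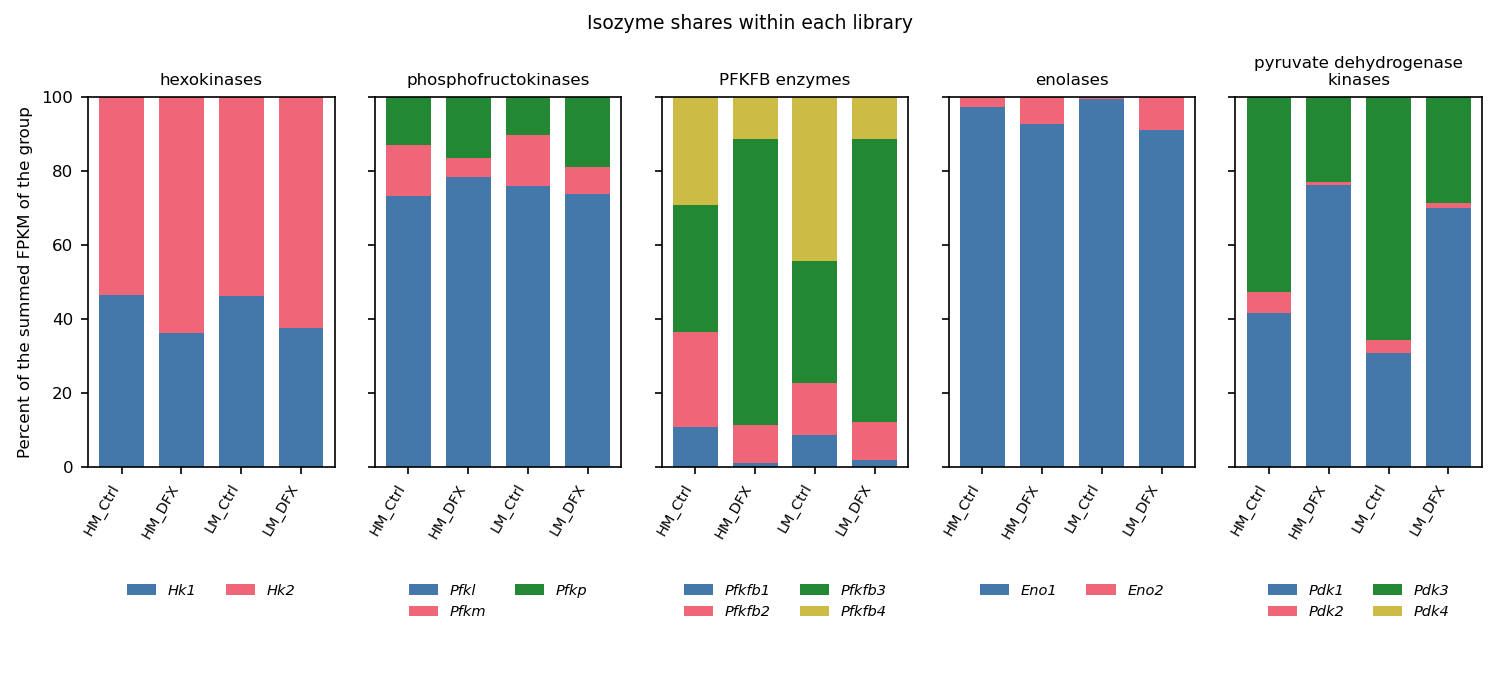
Stacked bars give the percent of the summed FPKM of each isozyme group taken by each gene, in the 4 libraries. With DFX the Pfkfb3 share rises from 34.4% to 77.5% in HM and from 33.1% to 76.4% in LM, the Pdk1 share from 41.7% to 76.3% and from 30.9% to 70.0%, and the Eno2 share of Eno1 and Eno2 from 2.65% to 7.10% and from 0.403% to 8.74%. Eno3, which is not a member, and the copies of Eno1 are left out of the enolase group.

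Aldolase cleaves the phosphorylated sugar into trioses. Aldoa, the main form (ENSMUSG00000030695, chromosome 7 from 126795234 to 126809108), had an FPKM of 470 without and 735 with DFX in HM, and 336 without and 910 with DFX in LM. Its order of libraries was that of Slc2a1, with a ratio of 1.56 [1.54, 1.59] in HM and 2.71 [2.67, 2.76] in LM. Aldoc, the brain form (ENSMUSG00000017390, chromosome 11 from 78322968 to 78327781), had 3.37, 1.66, 10.4 and 23.2. It was the member whose clones stood furthest apart under DFX among those detected in all libraries, since it was lower with DFX in HM (0.494 [0.374, 0.647]) and higher in LM (2.22 [2.01, 2.45]). On the log2 scale of FPKM + 1 the HM value was −0.71, short of the call, and −1.02 without a pseudocount. Aldoc was at most 3.02% of aldolase FPKM in any library. Tpi1, which interconverts the trioses, had 316, 313, 267 and 498, a log2 fold change of −0.01 in HM and 0.90 in LM.

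The lower steps harvest ATP and end in pyruvate, and they held the most abundant members. Pgk1, the first enzyme to make ATP (ENSMUSG00000062070, chromosome X from 106187100 to 106203699), had an FPKM of 650 without and 924 with DFX in HM, and 555 without and 1135 with DFX in LM, where it ranked 25 among the 12669 kept genes. The ratio was 1.42 [1.40, 1.45] in HM and 2.04 [2.01, 2.08] in LM, so the LM response was barely past the call. Pgam1 (369, 501, 313 and 571), which moves the phosphate within the molecule, had log2 fold changes of 0.44 in HM and 0.87 in LM. Pkm, the last enzyme, had 798, 608, 694 and 763 and values of −0.39 and 0.14, so its level was highest in HM_Ctrl. Bpgm, the mutase of red cells, was between 1.39 and 3.21. More than 20% of the 31-mers of Pgk1, Pgam1, Pkm, Eno1, Gpi1, Ldhb, G6pdx and Gapdh also occur in another gene. This makes their counts uncertain. For Pgk1, Pgam1, Pkm, Gpi1 and G6pdx, copies in the matrix that lie elsewhere in the genome took 0.891% or less of the combined fragments. Genes that overlap the member itself were left out of this sum. They include Gm49759 (13.4% of the 31-mers of Pkm), Ikbkg (11.8% for G6pdx) and Gm26762 (9.54% for Gpi1). The only copy of Ldhb was listed at 0.

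Enolase makes phosphoenolpyruvate. Eno2, the form first known from neurons (ENSMUSG00000004267, chromosome 6 from 124760053 to 124769673), had an FPKM of 10.2 without and 26.1 with DFX in HM, and 1.26 without and 41.8 with DFX in LM, from 801, 1764, 93 and 4303 fragments. LM_Ctrl was far below the other libraries and LM_DFX the highest. The ratio was 33.3 [27.1, 41.3] in LM and 2.57 [2.36, 2.79] in HM, log2 fold changes of 4.25 and 1.28, and the LM value was the largest rise with DFX of any member. Eno1, the ubiquitous form, had 374, 341, 310 and 437, with −0.13 in HM and 0.49 in LM. Of the combined fragments of Eno1 and 3 close copies (Eno1b, Gm4735 and Gm5855), the copies held between 38.1% and 40.2%, and with them the values were −0.14 and 0.44. Eno2 was 0.403% of the FPKM of Eno1 and Eno2 in LM_Ctrl and 8.74% in LM_DFX, with 2.65% and 7.10% in HM.

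Gapdh, a common reference gene that links triose oxidation to NADH (ENSMUSG00000057666, chromosome 6 from 125161715 to 125166467), had an FPKM of 22.9 without and 10.7 with DFX in HM, and 7.06 without and 16.8 with DFX in LM. These levels were far below those of Tpi1 and Pgk1, the enzymes before and after it. The fragments of 86 copies in the matrix that share at least 5% of its 31-mers, most of them processed pseudogenes, were added to it, and the copies held between 94.1% and 98.0% of the combined fragments. Gm13394 alone had an FPKM of 1058 without and 1537 with DFX in HM, and 785 without and 1847 with DFX in LM. For the row named Gapdh the log2 fold change was −1.03 in HM and 1.15 in LM. With the copies added, the log2 ratio of fragments per library total was 0.49 in HM and 1.26 in LM, so the direction in HM turned and that in LM did not. The row named Gapdh alone cannot be taken as the level of the gene. Counts of members past 2-fold that change when the copies are added to it are given both ways.

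**Figure D3:**
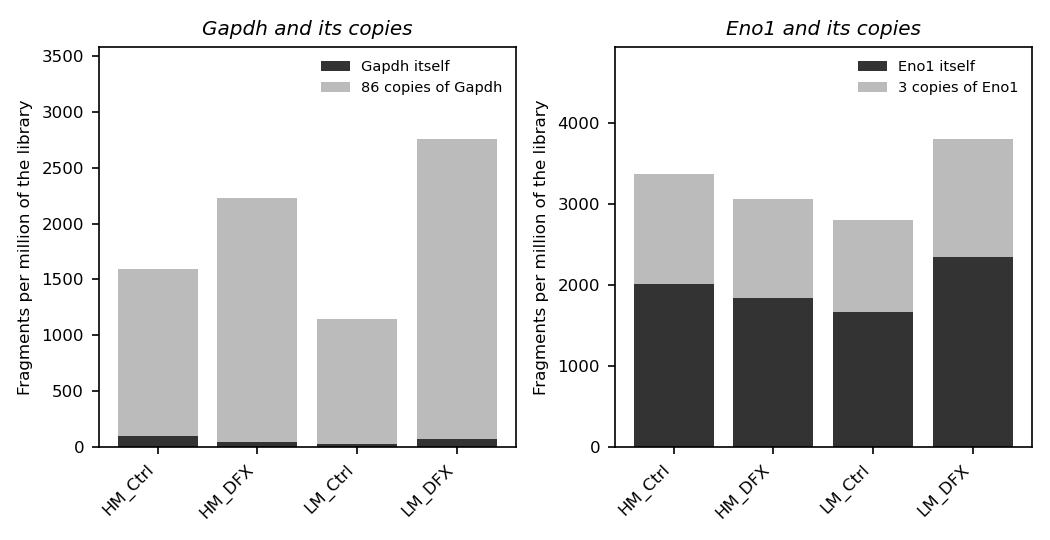
Fragments, scaled to the total of each library, on the row of Gapdh or Eno1 (dark) and on their copies in the matrix (light). The copies hold 94.1% to 98.0% of the Gapdh fragments and 38.1% to 40.2% of the Eno1 fragments, and the sum for Gapdh is higher with DFX in both clones.

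Lactate dehydrogenase is a tetramer of products of Ldha and Ldhb. Ldha, the muscle–type subunit that favours lactate (ENSMUSG00000063229, chromosome 7 from 46841475 to 46855627), had an FPKM of 557 without and 710 with DFX in HM, and 510 without and 884 with DFX in LM. It was higher with DFX by 1.27-fold [1.25, 1.29] in HM and 1.73-fold [1.71, 1.76] in LM, in both cases under the call. Ldhb, the heart–type subunit (ENSMUSG00000030246, chromosome 6 from 142490249 to 142507957), was nearly missing from HM, with 1 fragment in HM_Ctrl and 0 in HM_DFX, against 205 in LM_Ctrl and 167 in LM_DFX. These give an FPKM of 0.0380, 0, 8.30 and 4.86. The ratio of HM_Ctrl to LM_Ctrl was 0.00458 [0.000115, 0.0258], and LM_DFX was at least 36.5-fold higher than HM_DFX with HM_DFX set at the 3 fragments that a count of 0 allows. The exact interval of HM_DFX over LM_DFX, which also covers the counting error of LM_DFX, reached up to 0.0340. It thus allows a smaller difference than 36.5-fold. Even in LM, Ldhb was 1.60% or less of lactate dehydrogenase FPKM. Slc16a1, the MCT1 lactate carrier, was between 46.9 and 58.2 in all libraries. Slc16a3, the MCT4 exporter and a textbook HIF–1 target, was listed at 0 in 3 libraries and had 3 fragments in LM_Ctrl, so no response to DFX was detectable at this depth.

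Pyruvate dehydrogenase passes pyruvate on to the citrate cycle, and its kinases switch it off. Pdk1, the HIF–1 target among them (ENSMUSG00000006494, chromosome 2 from 71873224 to 71903858), had an FPKM of 15.2 without and 19.7 with DFX in HM, and 10.7 without and 36.5 with DFX in LM. It rose in LM at a ratio of 3.41 [3.21, 3.62], with 1.29 [1.22, 1.38] in HM. Pdk3 (ENSMUSG00000035232, chromosome X from 93764607 to 93832201) had 19.2, 5.90, 22.8 and 14.8 and fell in HM, with a ratio of 0.308 [0.264, 0.358] against 0.651 [0.592, 0.716] in LM. On the scale of FPKM + 1 its log2 fold change in HM was −1.55. Pdk2 (ENSMUSG00000038967, chromosome 11 from 95026258 to 95041354) had 2.10, 0.220, 1.19 and 0.809, from 111, 10, 59 and 56 fragments, and its ratio was 0.105 [0.0490, 0.200] in HM, lower than that of Pdk3, and 0.682 [0.465, 1.00] in LM. Its log2 fold change in HM was −1.34 and became −3.25 without a pseudocount. Pdk4 was listed at 0 in all libraries. By FPKM, Pdk3 was the largest kinase without drug (52.5% of kinase FPKM in HM_Ctrl and 65.7% in LM_Ctrl) and Pdk1 with DFX (76.3% and 70.0%). By fragments without length, Pdk1 led also without drug, at 68.0% in HM_Ctrl and 57.3% in LM_Ctrl, with 90.6% and 87.5% with DFX. Pdha1, the catalytic subunit that the kinases phosphorylate, had 52.5, 37.8, 54.7 and 36.6, log2 fold changes of −0.47 and −0.57.

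The pentose phosphate enzymes were on balance lower with DFX. The median log2 fold change of the oxidative enzymes was −0.88 in HM and −0.56 in LM and that of the non–oxidative enzymes −0.51 and −0.09, with −0.10 in HM and −0.04 in LM for all kept genes. Of the 7 genes, 2 were 2-fold lower in HM (12.4% of all kept genes) and 0 in LM (8.72%), and 0 were higher in either clone. The share of total FPKM taken by the oxidative enzymes (G6pdx, Pgls and Pgd) was 0.679-fold in HM and 0.693-fold in LM of that without drug, and that taken by the non–oxidative enzymes (Rpia, Rpe, Tkt and Taldo1) was 0.575-fold and 0.825-fold. G6pdx, the first and rate–limiting enzyme (ENSMUSG00000031400, chromosome X from 74409483 to 74429194), had an FPKM of 35.04 without and 18.6 with DFX in HM, and 45.8 without and 26.5 with DFX in LM. Both DFX libraries were below both others, at ratios of 0.532 [0.490, 0.578] and 0.578 [0.542, 0.615], although neither passed the call. Pgls, the lactonase of the next step (ENSMUSG00000031807, chromosome 8 from 71592176 to 71601092), had 24.5, 10.3, 22.5 and 22.7. Only HM_DFX was low, with a ratio of 0.420 [0.380, 0.462] in HM and 1.01 [0.943, 1.09] in LM, and 20.6% of its exon length overlaps Fam129c on the same strand. Pgd, which makes ribulose 5–phosphate, had 37.0, 37.2, 43.6 and 29.3.

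Among the non–oxidative enzymes, Taldo1, the transaldolase (ENSMUSG00000025503, chromosome 7 from 141392199 to 141402968), had an FPKM of 47.3 without and 21.6 with DFX in HM, and 46.2 without and 27.8 with DFX in LM. It was lower with DFX in both clones, with ratios of 0.456 [0.417, 0.499] in HM and 0.601 [0.559, 0.647] in LM, and the call in HM was lost with median–ratio scaling at −0.96. Tkt, the transketolase, had 66.9, 38.7, 71.2 and 63.4, log2 fold changes of −0.77 and −0.17. Rpia (5.92, 5.13, 8.68 and 11.2) and Rpe (17.0, 14.1, 18.1 and 17.9), which interconvert the pentoses, were not past 2-fold on the FPKM + 1 scale in any comparison, and Rpia came closest in HM_DFX against LM_DFX at −0.99, with a ratio of 0.459 [0.409, 0.514].

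**Figure D4:**
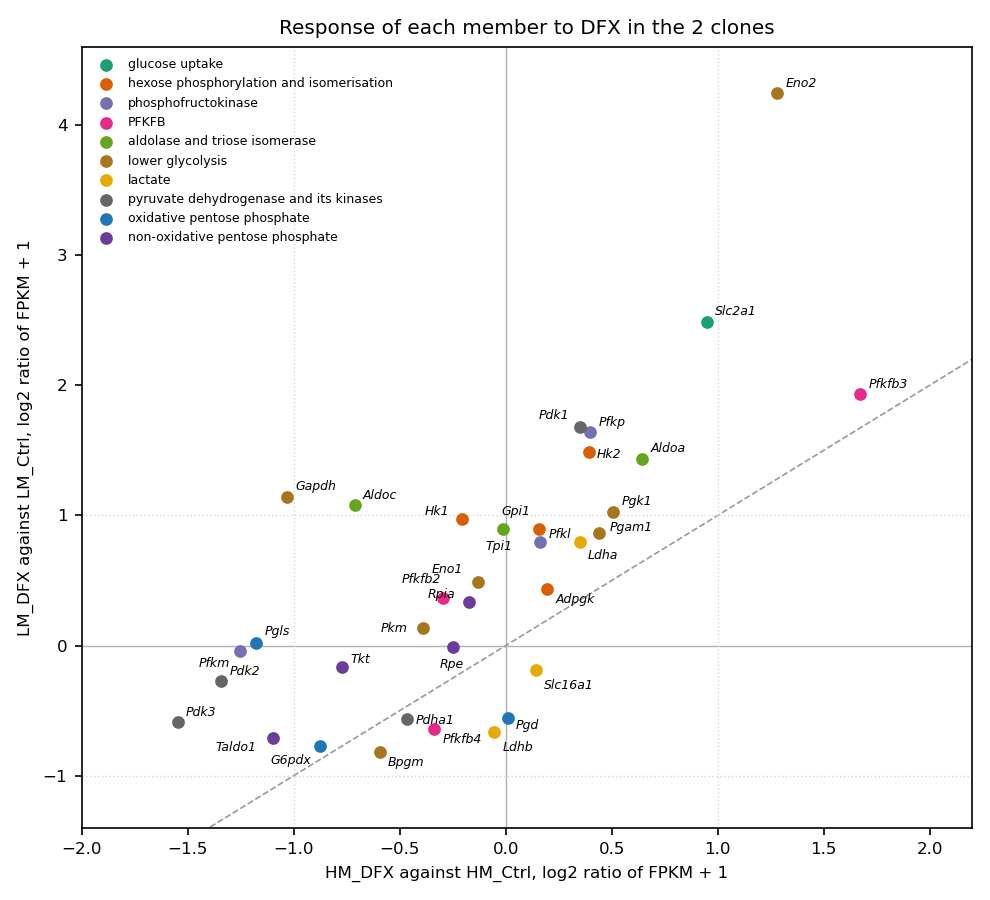
Each point is an expressed member, placed by its log2 ratio of FPKM + 1 with DFX in HM (horizontal) and in LM (vertical) and coloured by role. 29 of the 35 points lie above the dashed line of equal response, where 7163 of all 12669 kept genes (not drawn) would lie. Eno2 and Pfkfb3 are the 2 points at least 2-fold higher in both clones.

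The HM and LM responses share no library and can be set side by side. Over the 35 members their Pearson correlation was 0.72, the same as over all 12669 kept genes, as a description across genes that share the 4 libraries. The sign was the same for 24 of 35 members (68.6%), against 75.9% of all kept genes. Gapdh is not among the 24, but had the same sign in both clones with its copies added. The LM value was above the HM value in 29 of the 35 members, against 7163 of all 12669 kept genes. The exceptions among the members were Pfkfb4, Bpgm, Ldhb, Slc16a1, Pdha1 and Pgd. The difference of the responses, HM minus LM, was 2-fold or more below 0 for 11 members, where 5.38% of all kept genes were, and above 0 for 0 members, where 3.52% were. The 11 were Slc2a1 (−1.54), Hk1 (−1.18), Hk2 (−1.10), Pfkm (−1.21), Pfkp (−1.24), Aldoc (−1.79), Gapdh (−2.18), Eno2 (−2.97), Pdk1 (−1.33), Pdk2 (−1.07) and Pgls (−1.19), and 10 without Gapdh, whose value with its copies was −0.77. For 8 of them the LM value was positive and the HM value smaller or negative, and for Pfkm, Pdk2 and Pgls the HM value was past 2-fold and the LM value was between −0.27 and 0.02. The median difference was −0.62 for members and −0.08 for all kept genes.

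This difference equals the comparison of the clones under DFX minus that without drug, and the comparisons share libraries, so they are given side by side. Without drug, HM_Ctrl was 2-fold higher than LM_Ctrl for 3 members (3.65% of all kept genes), Slc2a1, Gapdh and Eno2, and lower for 2 (3.15% of all kept genes), Aldoc and Ldhb. Without Gapdh the first count was 2, since its value of 1.57 became 0.47 with the copies. The median was 0.20 for members against 0.01 for all kept genes, with 21 members above 0 and 14 below (23 and 12 with 75th percentile or equal summed scaling, where Adpgk and Slc16a1 changed sign). Of all kept genes, 6511 were above 0 and 6105 below. Slc2a1 was 2.65-fold [2.52, 2.78] and Eno2 8.09-fold [6.52, 10.1] higher in HM_Ctrl. Under DFX, 0 members were 2-fold higher in HM_DFX than in LM_DFX (3.31% of all kept genes) and 4 were lower (5.05% of all kept genes), Aldoc, Ldhb, Pdk3 and Pgls. The median was −0.33 against −0.05, and 31 of the 35 members were below 0, including all 16 expressed HIF–1 targets. Of all 12669 kept genes, 6872 were below 0. This count of 31 was the same under the 3 other scalings.

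**Figure D5:**
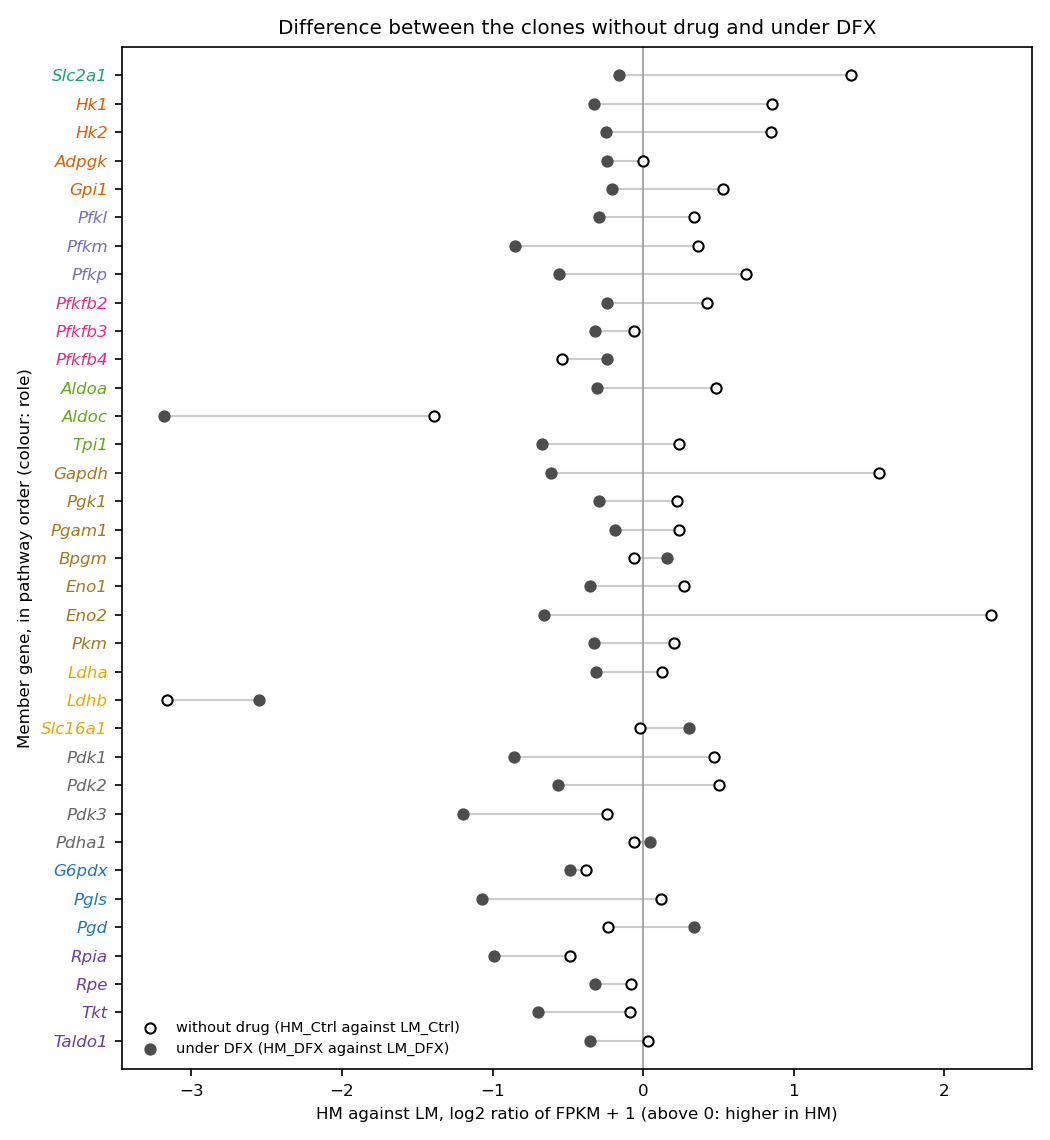
Open circles give the log2 ratio of FPKM + 1 of HM against LM without drug and filled circles that under DFX, for each expressed member. From Slc2a1 to Pdk2 most open circles lie to the right of 0 and most filled circles to the left. Aldoc and Ldhb lie furthest to the left in both, and Adpgk, Pfkfb3 and Pfkfb4 also lie to the left in both.

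Other genes of sugar metabolism were read from a list of 73, of which 43 were expressed. In LM, 6 were 2-fold higher (7.09% of all kept genes) and 3 lower (8.72%), with a median of 0.01, and in HM 1 was higher (6.93%) and 7 lower (12.4%), with a median of −0.20. Those higher in LM and not in HM included the phosphoglucomutase Pgm2 (FPKM 75.9 without and 109 with DFX in HM, and 33.6 without and 149 with DFX in LM), the glycogen makers Gys1 (20.2, 25.4, 14.3 and 51.2) and Gbe1 (11.7, 16.6, 8.28 and 21.5), and Bsg, the chaperone of the lactate carriers (262, 343, 191 and 588). They had the same order of libraries as Slc2a1, with LM_Ctrl lowest and LM_DFX highest. Eno3, the muscle enolase, went the other way from Eno2, with 79.6, 21.7, 139 and 58.7. The glycogen phosphorylase Pygb had log2 fold changes of −1.01 in both clones, and H6pd, which runs the oxidative pentose steps in the endoplasmic reticulum, had −1.31 in HM and −0.79 in LM. Pdp2, a phosphatase that reactivates pyruvate dehydrogenase, had −1.11 and −1.29, and Gpd1l, an enzyme like glycerol 3–phosphate dehydrogenase, −1.14 and −0.92. Txnip, which restrains glucose uptake, was higher with DFX in both (0.860, 5.73, 6.39 and 32.3), with 19.4% of its exon length overlapping Gm15441 on the opposite strand. The transcript of Hif1a was lower with DFX (69.1, 30.6, 51.9 and 29.1).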

How the data were processed

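Total RNA of 4T1–HM and 4T1–LM cells was sequenced as paired–end directional libraries made from poly(A) RNA, and depletion of ribosomal RNA is also mentioned. Per the submitters' processing notes, FastQC, Trimmomatic, HISAT2 with mm10 and featureCounts were used, and the versions, the annotation release, the strand setting and the handling of reads with several matches are not given in the sources used here. The authors deposited FPKM for 49585 genes, genes at 0 in all 4 libraries among them, with 1 column for each library. All per–sample columns were used. The study called genes with edgeR, which was not repeated, because FPKM are not counts and 1 library per condition gives no spread.

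The members and lists were chosen with earlier results of these data known. Every member is named, and full values are given for members past 2-fold in any comparison and for Slc2a1, Hk2, Ldha, Pdk1 and G6pdx. Other pathway genes are named where they passed 2-fold with DFX and an FPKM of 5. Fold changes are log2 ratios of FPKM + 1, without a test. Exon lengths were taken from GENCODE M21 (also mm10), and with them 96.8% of 18235 genes above 0 gave fragments that were whole to within 0.02 in each of the 4 libraries. For 2451 more genes, Aldoa, Pfkl, Pfkm, Pfkp, Pgam1 and Tkt among them, the length was solved from their values. The totals were 16745610 and 14363064 fragments in HM without and with DFX, and 15731519 and 21883856 in LM. Fragments served only for depth, copies and exact (Clopper–Pearson) 95% intervals, and ratios of shares of the library totals were used for copies.

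The alternatives were a pseudocount of 0.1 or none, the filter left out or set on the mean FPKM, median–ratio and 75th percentile scaling, a background of protein–coding genes, thresholds of 1.5-fold and 4-fold, members with at most 20% shared 31-mers, and isozyme shares of fragments without length. Equal summed FPKM and the adding of copies were chosen after seeing the data. The calling was run on simulated fragments that held counting error only. Spread between cultures was not simulated, so this run says nothing on that spread. Python 3.11.15, numpy 2.4.6, pandas 2.3.3, scipy 1.17.1 and matplotlib 3.10.9 were used. A marker result that the lists cover is not reported here.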

Additional observations from a re-analysis of the deposited data

Results flagged for a closer look

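For 11 of the 35 expressed members the log2 fold change with DFX had one sign in HM and the other in LM, as it had for 1669 genes lower in HM and higher in LM and 1246 genes of the reverse kind among all 12669 kept genes. With 1 library per condition this difference was not tested. For 9 of them the value was below 0 in HM and above 0 in LM, and the difference, HM minus LM, was −2.18 for Gapdh, −1.79 for Aldoc, −1.19 for Pgls, −1.18 for Hk1, −0.91 for Tpi1, −0.66 for Pfkfb2, −0.62 for Eno1, −0.53 for Pkm and −0.51 for Rpia. For the other 2 it was above 0 in HM and below 0 in LM, at 0.57 for Pgd and 0.33 for Slc16a1. Of the 11, only Gapdh, Aldoc, Pgls and Hk1 differed by 2-fold or more between the clones. Gapdh, Eno1 and Pkm share more than 20% of their 31-mers with other genes, and Gapdh lost the opposite sign when its copies were added. Eno1 and Tpi1 lost it with median–ratio scaling and Pgd with equal summed FPKM, since their values in HM were −0.13, −0.01 and 0.01. Pfkm and Rpe gained it with median–ratio scaling, which left the count at 11.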

How the results depend on the processing

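Over all alternatives, 105 recomputed counts and shares stayed the same and 25 moved. A count stayed the same if equal to the reported value or within 1.5-fold of it. The change of an isozyme share with DFX did so if it differed by less than its counting error. For single members, 553 recomputed values stayed on the same side of the 2-fold threshold, 9 gained a call, 4 lost it and 1 reversed. The sign was compared only for values past 2-fold. Pfkm in LM, which changed sign with median–ratio scaling, is thus among the 553. The fold threshold moved counts most. At 1.5-fold, with the percent of all kept genes in brackets, 4 members were higher (16%) and 10 lower (26%) in HM_DFX, 16 higher (16.5%) and 6 lower (20%) in LM_DFX, 6 higher (10.5%) in HM_Ctrl than in LM_Ctrl, 11 lower (14.6%) in HM_DFX than in LM_DFX, and 1 above (9.77%) and 19 below 0 (16.4%) in the difference of the responses. At 4-fold, 0 were higher (0.876%) and 0 lower (1.31%) in HM_DFX, 2 higher (1.42%) in LM_DFX, 1 higher (0.332%) and 1 lower (0.434%) in HM_Ctrl, 2 lower (0.466%) in HM_DFX than in LM_DFX, and 2 below 0 (0.466%) in the difference, Eno2 and the row of Gapdh. With a pseudocount of 0.1 or none, 1 member (Bpgm) was 2-fold lower in LM_DFX, and with the 27 members of at most 20% shared 31-mers 1 was lower in HM_Ctrl. Without the filter, the median of the members in LM was 0.33. Shares of fragments without length moved by −5.45 points for Pfkm in HM and −4.46 in LM with DFX, 39.2 for Pfkfb3 in LM, 3.95 and 7.37 for Eno2, and 22.7 and 30.2 for Pdk1, the same directions as by FPKM, although Pdk1 and not Pdk3 then led without drug. With copies added, Gapdh turned to 0.49 in HM and lost its calls between the clones without drug (0.47) and in the difference (−0.77). Gapdh (−0.90) and Taldo1 (−0.96) lost the call in HM with median–ratio scaling. No paired analysis was possible because each condition has 1 library, and for the same reason no library could be left out. At these depths, Slc2a3, Slc16a3 and Pdk4, and Ldhb in HM, were at or under 3 fragments.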
